A study of Mus musculus with 6 samples.

Results

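The transforming growth factor beta (TGF-beta) pathway was examined through the accessible chromatin of 10 genes: the ligand genes Tgfb1, Tgfb2 and Tgfb3, the receptor genes Tgfbr1, Tgfbr2 and Tgfbr3, the signal transducer genes Smad2 and Smad3, and the genes of the pathway inhibitors Smad7 and Skil. An accessible interval was counted to one of these genes when its midpoint lay inside the gene body (mm10 coordinates, RefSeq protein-coding genes), or when the nearest end of any protein-coding gene was an end of that gene and lay within 300 kb. This gave 61 of the 52223 intervals in the table, and all 61 met the nearest-end criterion. The intervals came from ATAC-seq, which sequences the stretches of DNA that a transposase can reach in nuclei, so a count of fragments in an interval measures how accessible it was.

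Nr6a1OE cells were mouse neural progenitors transduced with a virus encoding Nr6a1 joined through a 2A sequence to the red fluorescent protein mScarlet3, and mScarlet cells were the same kind of progenitors transduced with mScarlet3 alone. Nr6a1 encodes germ cell nuclear factor, an orphan nuclear receptor. Both groups were differentiated from embryonic stem cells, received bFGF at 10 ng/ml and, on day 2, the GSK3 inhibitor CHIR99021 at 5 µM. From day 3 they were given retinoic acid (100 nM) and SAG, a Smoothened agonist (10 nM), of which SAG was kept once virus was added on day 5. They were sorted for mScarlet3 fluorescence on day 9, with 50000 cells per library. Each group had 3 libraries, and nothing in the labels says that they came from separate cultures, so the tests measure the spread between these libraries only, which may be technical. Accessibility counts do not measure Nr6a1 RNA, and its overexpression was not checked here.

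TGF-beta ligands are secreted in a latent form and, once freed, bring together the type II receptor Tgfbr2 and the type I receptor Tgfbr1, a kinase that phosphorylates Smad2 and Smad3. The phosphorylated Smads join Smad4 and enter the nucleus, where they act at target genes with other transcription factors. In the developing mouse hindbrain, TGF-beta signalling, with Tgfb2 among its ligands, times the point at which ventral progenitors stop making motor neurons and turn to serotonergic neurons, which makes the pathway of interest for any factor that may act on progenitor timing.

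The libraries held 7035135, 7056536 and 7923767 fragments in intervals in Nr6a1OE 1, 2 and 3, against 7347754, 6857763 and 8030029 in mScarlet 1, 2 and 3. All 10 neural progenitor markers had an interval within 1 kb of a gene end (Sox1, Sox2, Sox3, Pax6, Nes, Hes5, Fabp7, Olig2, Nkx6-1 and Vim), whose summed level was 333 to 343 CPM per kb in Nr6a1OE and 334 to 345 in mScarlet. Of 4 pluripotency markers only Esrrb had one, with 5.08 CPM per kb in Nr6a1OE and 4.23 in mScarlet, while Pou5f1, Nanog and Zfp42 had none. CPM are fragment counts scaled to the effective size of each library (TMM), here divided by the length of the interval in kb. Mesoderm and mesenchyme markers had an interval at 5 of 7 genes (none at Meox1 or Prrx1), summing to 93.0 to 96.5 CPM per kb in Nr6a1OE and 87.5 to 92.0 in mScarlet. These sums did not overlap, which was also so at 16.6% of all tested intervals taken singly. T, Tbx6, Col1a1 and Pdgfra were higher in Nr6a1OE and Twist1 was lower (25.1 against 26.4 CPM per kb). None of these passed (lowest edgeR adjusted p = 0.0565, at T), and their part in the values below was not tested. Neuron markers had an interval at 4 of 6 genes (106 to 113 in Nr6a1OE and 111 to 117 in mScarlet), neural crest at 2 of 3 (23.4 to 26.6 and 22.7 to 27.3), endoderm at 2 of 4 (27.1 to 29.5 and 27.5 to 30.4) and endothelium and blood at 2 of 4 (42.1 to 49.2 and 46.2 to 48.7). The sums run over different numbers of genes, so those of different cell types cannot be set against each other. Per marker with an interval, the mean over both groups was 33.8 CPM per kb for neural progenitors and 27.9 for neurons. It was 23.4 for endothelium and blood, 18.4 for mesoderm and mesenchyme, 14.4 for endoderm, 12.4 for neural crest and 4.65 for pluripotency. An accessible gene end does not show that a gene is transcribed.

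No interval of the 10 genes changed past the threshold. At the start regions of the ligand, receptor, Smad and inhibitor genes the libraries of the groups overlapped, with log2 fold changes (Nr6a1OE over mScarlet) of -0.06 to 0.12. In bulk libraries, fewer cells with an open interval and less opening per cell cannot be told apart. The 4 intervals with the smallest p lay away from gene starts, at Smad3, Tgfbr3 and Tgfb2, and all 4 were lower in Nr6a1OE without passing the correction over all intervals. The promoter sequences below are shown because an interval overlapped each of them and they differ in kind, and they are followed by the level measured at each.

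RefSeq promoters (GRCm38.p6, the assembly of mm10) were at hand for 5 of the 10 genes, and the 250 bases before the transcription start are printed 5′ to 3′ on the gene's own strand. Capitals mark exact matches, on either strand, to any of 6 motifs: the TATA box with letters TATAAA, the E-box with letters CACGTG, the GC box with letters GGGCGG, the CCAAT box, the short box bound by Smad proteins with letters CAGAC, and the letters AGGTCA (the core motif of many nuclear receptors, the family of Nr6a1). The windows lie at chr7:25686752-25687001 (plus strand, Tgfb1), chr1:186705990-186706239 (minus, Tgfb2), chr4:47352972-47353221 (plus, Tgfbr1), chr9:116175364-116175613 (minus, Tgfbr2) and chr9:63757995-63758244 (minus, Smad3).
Tgfb1: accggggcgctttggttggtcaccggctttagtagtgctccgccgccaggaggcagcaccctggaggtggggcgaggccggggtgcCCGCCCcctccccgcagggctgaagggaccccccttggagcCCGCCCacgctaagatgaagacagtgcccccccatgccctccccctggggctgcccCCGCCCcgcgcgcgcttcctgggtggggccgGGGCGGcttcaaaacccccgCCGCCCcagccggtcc
Tgfb2: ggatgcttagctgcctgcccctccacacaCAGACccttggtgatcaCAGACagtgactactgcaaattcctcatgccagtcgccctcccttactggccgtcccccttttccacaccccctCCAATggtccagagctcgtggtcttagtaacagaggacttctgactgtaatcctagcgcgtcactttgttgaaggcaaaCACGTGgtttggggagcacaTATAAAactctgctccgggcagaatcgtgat
Tgfbr1: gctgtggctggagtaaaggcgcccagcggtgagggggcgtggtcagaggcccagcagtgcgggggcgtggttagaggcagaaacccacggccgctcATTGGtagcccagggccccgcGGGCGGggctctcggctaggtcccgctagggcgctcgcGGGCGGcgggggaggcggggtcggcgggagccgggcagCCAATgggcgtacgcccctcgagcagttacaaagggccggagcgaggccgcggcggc
Tgfbr2: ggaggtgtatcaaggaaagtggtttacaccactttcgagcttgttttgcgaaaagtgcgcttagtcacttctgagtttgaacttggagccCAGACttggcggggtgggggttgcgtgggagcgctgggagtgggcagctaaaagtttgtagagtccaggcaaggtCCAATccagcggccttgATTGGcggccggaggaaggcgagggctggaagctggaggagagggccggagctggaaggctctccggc
Smad3: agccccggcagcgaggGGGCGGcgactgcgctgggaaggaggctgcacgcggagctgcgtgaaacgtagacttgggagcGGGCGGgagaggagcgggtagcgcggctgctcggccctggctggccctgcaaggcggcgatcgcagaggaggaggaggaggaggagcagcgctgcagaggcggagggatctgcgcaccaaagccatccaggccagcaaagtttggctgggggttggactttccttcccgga

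Among the 5 promoters only that of Tgfb2 held a TATA box (at -31 to -26 from the start) or an E-box (at -51 to -46). These were in 12.4% and 6.02% of the 32851 RefSeq promoter windows of this length. The Tgfb2 promoter had no GC box, as was also so for Tgfbr2. Tgfb2 also held 2 of the short Smad boxes, at -221 to -217 and -204 to -200, a motif found in 42.2% of all windows and, among the other 4 printed here, once in Tgfbr2. The promoters of Tgfb1, Tgfbr1 and Smad3 held 5, 2 and 2 GC boxes, found in 32.7% of all windows, and had a GC content of 75.2, 74.8 and 69.2%, against 53.6% for Tgfb2, 58.4% for Tgfbr2 and a median of 52.4% over all windows. CCAAT was found at 2 places each in Tgfbr1 and Tgfbr2 and at 1 in Tgfb2, and in 33.8% of all windows. The 6 letters of the nuclear receptor motif were in none of the 5 windows and in 14.0% of all windows. A match describes letters only, and a missing match says nothing of binding in the rest of an interval. A second RefSeq start inside Tgfbr1, at position 47386216, had no interval over it. The Tgfb2 start used here, at position 186705989, also lay inside its annotated gene, whose 5′ end is at 186709697.

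**Figure D1:**
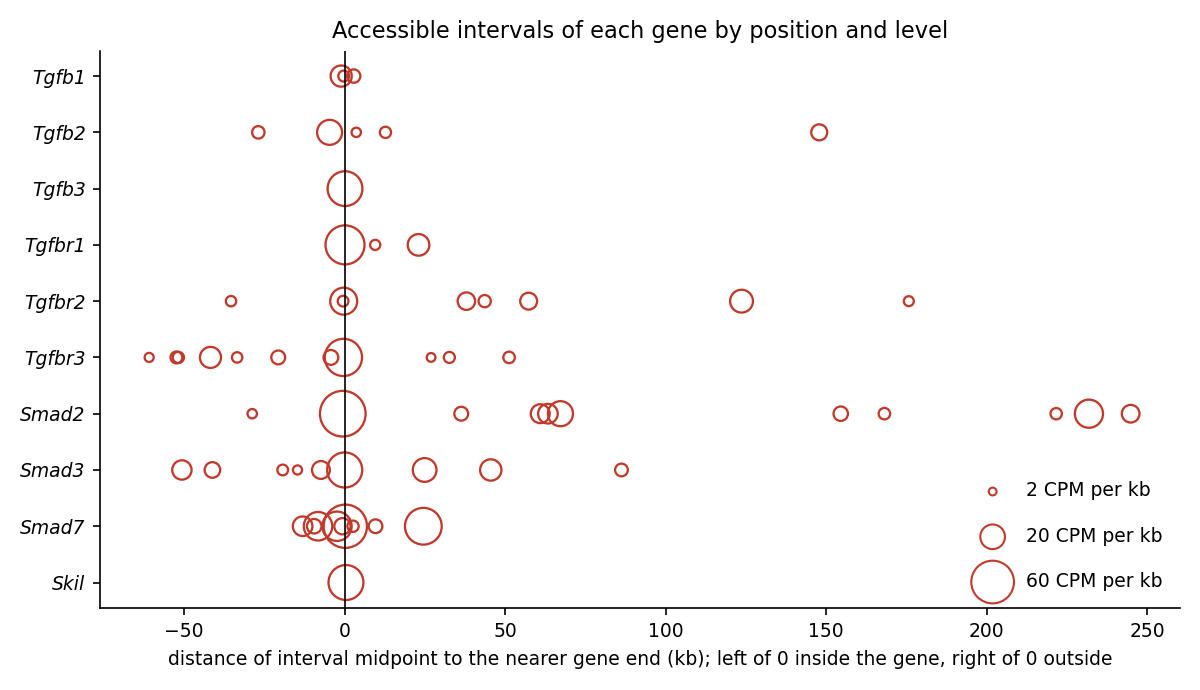
Position of the 61 intervals of the 10 genes. The horizontal axis gives the distance of the interval midpoint to the nearer end of the gene in kb, left of 0 inside the gene and right of 0 outside; the area of a circle is proportional to accessibility in CPM per kb, averaged over both groups. Tgfb3 and Skil had 1 interval each, and the intervals of Smad2 reached out to 244.8 kb.

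The 10 genes differed widely in how much accessible chromatin was counted to them. Tgfb3 and Skil had 1 interval each, Tgfb1 and Tgfbr1 had 3, Tgfb2 had 5, Tgfbr2 had 8, Smad3 and Smad7 had 9, and Tgfbr3 and Smad2 had 11, against a median of 2 over the 16518 protein-coding genes with any interval. Of the 61, 11 lay within 1 kb of an end of their gene, 21 elsewhere inside it and 29 outside it, and none of those outside lay in another protein-coding gene. Tgfbr3, a gene of 183.1 kb, had 7 of its 11 intervals inside beyond 1 kb from its ends, while Smad2 had 9 of its 11 outside. Many were weak, with 30 of the 61 averaging under 50 fragments per library.

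Strong elements also lay away from gene starts. An interval 24.5 kb outside Smad7 (chromosome 18, 75342275 to 75343478) had 53.0, 50.3 and 54.8 CPM in Nr6a1OE, against 55.4, 53.9 and 53.7 CPM in mScarlet. Per length it reached 43.8 ± 1.87 CPM per kb in Nr6a1OE and 45.2 ± 0.791 in mScarlet (SD, n = 3 each), above the start or gene-end intervals of Smad3, Skil and every ligand gene, and of Tgfbr2. An interval 231.8 kb from Smad2 (chromosome 18, 76542189 to 76544844) had 68.8, 67.7 and 68.5 CPM in Nr6a1OE and 68.0, 70.1 and 71.4 CPM in mScarlet. At Tgfbr2, an interval 123.6 kb outside the gene (chromosome 9, 116298232 to 116299719) had 25.0, 25.3 and 26.1 CPM in Nr6a1OE and 25.1, 27.2 and 24.4 CPM in mScarlet. The groups overlapped at all 3, with log2 fold changes of -0.04, -0.03 and 0.001, and none passed (edgeR quasi-likelihood adjusted p = 0.842, 0.870 and 0.997). These 3 were chosen after their values were seen, and which gene an interval so far out acts on was not tested.

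Levels at the start of each gene were next compared per length, using the interval that overlapped the RefSeq promoter or, for the other 5 genes, the interval with the most fragments within 1 kb of a gene end. Smad2 was highest, with 68.2 ± 1.51 CPM per kb in Nr6a1OE and 69.1 ± 1.97 in mScarlet (SD, n = 3 each), above 96.9% of the 12618 intervals within 1 kb of any gene end. Smad7 followed with 61.5 ± 2.21 in Nr6a1OE and 62.0 ± 4.47 in mScarlet, then Tgfbr1 with 49.4 ± 1.67 and 50.9 ± 1.52, and Tgfbr3 with 45.0 ± 3.30 and 46.5 ± 1.94, in the same order of groups. Smad3, Skil and Tgfb3 lay together at 39.0 to 40.4 CPM per kb in Nr6a1OE and 39.8 to 41.0 in mScarlet, and the libraries of neighbours in this order overlapped. Tgfbr2 (23.4 ± 0.547 in Nr6a1OE and 24.5 ± 1.86 in mScarlet), Tgfb2 (20.4 ± 1.66 and 20.6 ± 0.957) and Tgfb1 (15.3 ± 1.54 and 14.2 ± 1.60) were lowest. Every other pair of neighbours in this order was separated in all libraries of both groups, in places by a narrow margin. In Nr6a1OE the lowest Tgfbr3 library had 41.23 CPM per kb and the highest Smad3 library 41.17. In mScarlet the lowest Tgfbr2 library had 22.32 and the highest Tgfb2 library 21.72. Tgfb1, the lowest per length, was above 24.5% of gene-end intervals. The order depends on interval width, which ran from 1361 bp at Tgfb3 to 3150 bp at Tgfb1. In CPM not divided by width, Skil (113.7 in Nr6a1OE and 112.0 in mScarlet) and Smad3 (110.4 and 113.2) were above Smad2 (101.7 and 103.1). Tgfbr2 was then lowest (33.2 and 34.8). The share of a gene's counted fragments that fell in its start or gene-end interval was 39.3% at Tgfbr2, 39.7% at Smad7 and 42.7% at Smad2, and 77.1 to 81.1% at Tgfb1, Tgfbr1 and Tgfb2.

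**Figure D2:**
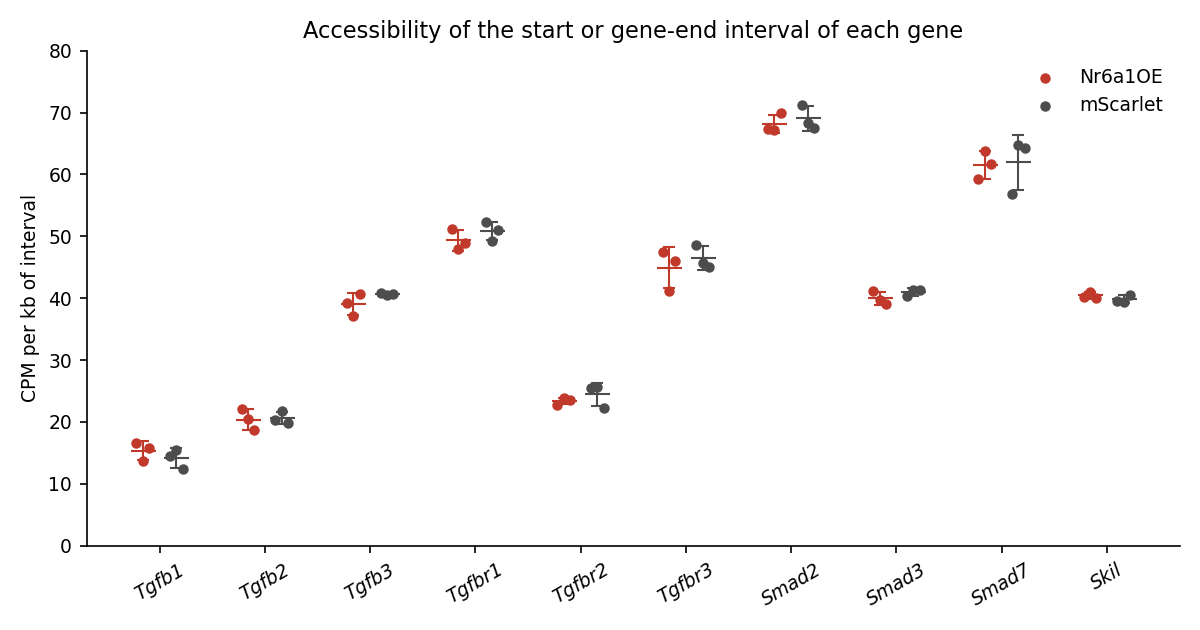
Accessibility of the start or gene-end interval of each gene in CPM per kb of interval, with 1 point per library, Nr6a1OE left of mScarlet for each gene; horizontal marks are means and bars 1 SD of 3 libraries. The ranges of the groups overlap at every gene, while the genes range over about 14 to 69 CPM per kb.

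Among the ligand genes, none of 9 intervals passed the test. At Tgfb1, whose ligand is the most widely expressed of the family in adult tissues, the start interval (chromosome 7, 25686543 to 25689692) had 52.4, 42.9 and 49.6 CPM in Nr6a1OE, against 45.9, 49.0 and 39.1 CPM in mScarlet. Nr6a1OE 1 and 3 were the highest of the 6 libraries and Nr6a1OE 2 lay within the mScarlet range. This difference of 0.12 on the log2 scale (SE 0.066, 95% interval -0.01 to 0.25) did not pass (edgeR adjusted p = 0.429), and it was 0.03 to 0.20 with 1 library left out. The interval at the other end of Tgfb1 (chromosome 7, 25703998 to 25705478) had 7.24, 5.09 and 6.06 CPM in Nr6a1OE and 4.38, 5.97 and 5.995 CPM in mScarlet (edgeR adjusted p = 0.779).

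Tgfb2, the ligand gene tied to the switch in the hindbrain, had 1 strong and 4 weak intervals. The interval over its promoter (chromosome 1, 186703825 to 186706206) had 52.4, 48.7 and 44.5 CPM in Nr6a1OE, against 48.5, 51.7 and 47.3 CPM in mScarlet, so the highest and the lowest library were both Nr6a1OE. Its log2 fold change was -0.02 (95% interval -0.14 to 0.11, edgeR adjusted p = 0.943). Its midpoint lies 4.7 kb from the annotated end of the gene, so it was named after its values were seen, for its overlap with the promoter. The interval nearest to an end of the gene, 3.6 kb outside (chromosome 1, 186712743 to 186713826), was weak, with 23, 24 and 33 fragments in Nr6a1OE and 20, 12 and 28 in mScarlet (log2 fold change 0.42, SE 0.25, edgeR adjusted p = 0.511). Of the 5 Tgfb2 intervals, 2 had a log2 fold change above 0 and 3 below, over -0.69 to 0.42.

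Tgfb3, whose loss in mice causes cleft palate, had its only interval at a gene end (chromosome 12, 86078481 to 86079841). It had 53.4, 50.6 and 55.4 CPM in Nr6a1OE, against 55.6, 55.1 and 55.3 CPM in mScarlet. The mScarlet libraries were nearly identical and Nr6a1OE 3 lay among them. The log2 fold change was -0.06 (SE 0.061, 95% interval -0.18 to 0.06, edgeR adjusted p = 0.773).

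None of the 21 receptor intervals tested passed. The start of Tgfbr1, the type I receptor kinase (chromosome 4, 47352194 to 47353991), had 92.0, 86.2 and 88.1 CPM in Nr6a1OE, against 94.1, 88.6 and 91.7 CPM in mScarlet. The groups overlapped, and the log2 fold change was -0.04 (95% interval -0.14 to 0.05, edgeR adjusted p = 0.775). Both further Tgfbr1 intervals were outside the gene, and the one with the smaller p (23.0 kb away) had a log2 fold change of -0.11 (edgeR adjusted p = 0.730). At Tgfbr2, the type II receptor that binds the ligand first, the start interval (chromosome 9, 116174327 to 116175747) had 32.4, 33.9 and 33.4 CPM in Nr6a1OE, against 36.1, 36.4 and 31.7 CPM in mScarlet. mScarlet 3 was the lowest of the 6 libraries and the other mScarlet libraries the highest. The log2 fold change was -0.06 (95% interval -0.21 to 0.09, edgeR adjusted p = 0.820). The Tgfbr2 interval with the smallest p, 35.4 kb from an end and inside the gene, had 18 to 27 fragments in Nr6a1OE and 14 to 20 in mScarlet (log2 fold change 0.34, SE 0.28, edgeR adjusted p = 0.661).

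Tgfbr3 encodes betaglycan, a coreceptor that presents ligand, Tgfb2 above all, to the signalling receptors. Its gene-end interval (chromosome 5, 107288496 to 107289941) had 68.8, 59.6 and 66.6 CPM in Nr6a1OE, against 70.4, 66.2 and 65.1 CPM in mScarlet. Nr6a1OE 2 was the lowest library and the others of both groups overlapped. The log2 fold change was -0.05 (95% interval -0.15 to 0.06, edgeR adjusted p = 0.804). Of the 10 Tgfbr3 intervals tested, 7 were below 0 and 3 above. The 1 interval that the filter on low counts removed was also at Tgfbr3, inside the gene, with 13, 18 and 10 fragments in Nr6a1OE and 9, 5 and 9 in mScarlet.

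None of the 20 intervals of the receptor-activated Smad genes passed. The gene-end interval of Smad2 (chromosome 18, 76240982 to 76242473) had 100.6, 100.3 and 104.3 CPM in Nr6a1OE, against 106.4, 102.0 and 100.8 CPM in mScarlet, with a log2 fold change of -0.02 (95% interval -0.10 to 0.07, edgeR adjusted p = 0.930). The Smad2 interval with the smallest p lay 244.8 kb away (chromosome 18, 76555815 to 76557271) and had 12.6, 15.1 and 14.3 CPM in Nr6a1OE, against 15.3, 16.6 and 15.99 CPM in mScarlet. Every Nr6a1OE library was below every mScarlet library there, though the log2 fold change of -0.19 (SE 0.11) did not pass (edgeR adjusted p = 0.520). The start interval of Smad3 (chromosome 9, 63756631 to 63759389) had 113.6, 109.6 and 108.0 CPM in Nr6a1OE, against 111.3, 114.2 and 114.0 CPM in mScarlet. The groups overlapped, with a log2 fold change of -0.04 (95% interval -0.12 to 0.05, edgeR adjusted p = 0.798).

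None of the 10 intervals of the inhibitor genes passed. Smad7, which blocks the type I receptor and is itself induced by TGF-beta, had 92.0, 98.9 and 95.6 CPM at its gene-end interval (chromosome 18, 75366426 to 75367977) in Nr6a1OE, against 88.2, 100.5 and 99.8 CPM in mScarlet. mScarlet 1 was the lowest of the 6 and the groups overlapped, with a log2 fold change of -0.01 (95% interval -0.10 to 0.08, edgeR adjusted p = 0.963). The Smad7 interval with the smallest p, 2.6 kb outside the gene, had 26 to 36 fragments in Nr6a1OE and 27 to 49 in mScarlet (log2 fold change -0.23, edgeR adjusted p = 0.720). Skil encodes SnoN, a corepressor of Smad complexes that TGF-beta first degrades and then induces. Its only interval (chromosome 3, 31093291 to 31096102) had 113.1, 115.4 and 112.7 CPM in Nr6a1OE, against 111.4, 110.6 and 114.0 CPM in mScarlet, a log2 fold change of 0.02 (95% interval -0.06 to 0.10, edgeR adjusted p = 0.904).

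In all, 0 of the 60 tested intervals were higher and 0 lower at an adjusted p under 0.05 in edgeR's quasi-likelihood test, against 0.469% higher and 1.26% lower of all 51637 tested intervals. DESeq2 also called 0, of 57 with an adjusted p. It called only 103 over all intervals, against 242 higher and 652 lower in edgeR, so its 0 here adds little. At an unadjusted p under 0.05, edgeR gave 4 of the 60 (6.67%), against 12.6% of all intervals, and DESeq2 gave 0. All 4 were lower in Nr6a1OE, a direction that 6.87% of all intervals had at that limit. The groups did not overlap at 6 of the 60 (10.0%), against 16.6% of all intervals. The median log2 fold change was -0.03 over the 60, with 26 above 0 and 34 below, and 0.0038 over all intervals. The quartiles of the 60 were -0.12 and 0.11, and of all intervals -0.11 and 0.12. None of the 10 genes is on chromosome 6 or 11, and the median log2 fold change of the 8 chromosomes that carry them was -0.01 to 0.01.

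**Figure D3:**
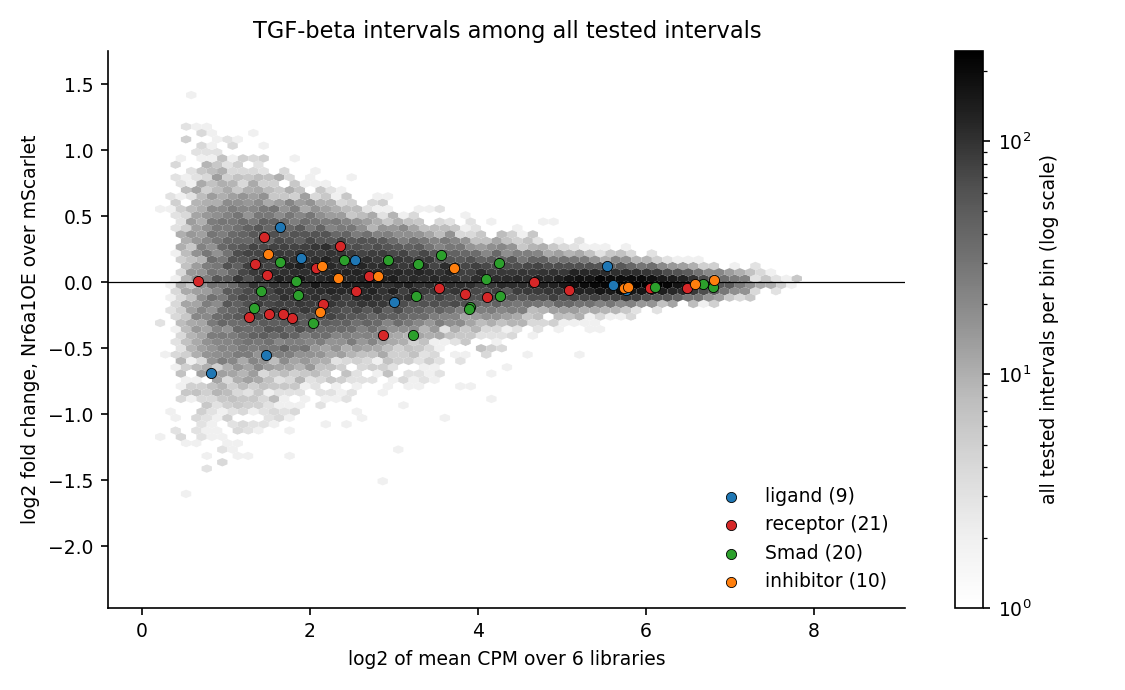
Log2 fold change of Nr6a1OE over mScarlet against the log2 of mean CPM over the 6 libraries. Grey bins count all 51637 tested intervals on a log scale, and coloured points are the 60 tested intervals of the 10 genes by role. The points lie within the cloud of all intervals at each level, over -0.69 to 0.42.

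The interval with the smallest p lay inside Smad3, 7.4 kb from its nearer end (chromosome 9, 63750153 to 63751043). It had 58, 62 and 58 fragments in Nr6a1OE, against 64, 69 and 104 in mScarlet, or 8.24, 8.76 and 7.32 CPM against 8.76, 10.1 and 12.99 CPM. mScarlet 3 stood above the rest, and the highest Nr6a1OE and the lowest mScarlet library were almost level. Their difference was -0.40 on the log2 scale (SE 0.14, 95% interval -0.69 to -0.12) and did not pass (edgeR unadjusted p = 0.0054, adjusted p = 0.142). Without mScarlet 3 the log2 fold change was -0.21 and the edgeR adjusted p = 0.709.

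The second lay inside Tgfbr3, 51.8 kb from its nearer end (chromosome 5, 107236929 to 107238700). It had 45, 41 and 53 fragments in Nr6a1OE, against 70, 55 and 60 in mScarlet, or 6.39, 5.79 and 6.69 CPM against 9.58, 8.01 and 7.49 CPM. All Nr6a1OE libraries were below all mScarlet libraries. The difference was -0.40 on the log2 scale (SE 0.16, 95% interval -0.72 to -0.08) and did not pass (edgeR unadjusted p = 0.0135, adjusted p = 0.227).

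The other two belonged to Tgfb2 and rested on few fragments. One, 147.8 kb outside the gene (chromosome 1, 186474775 to 186475105), had 16, 11 and 23 fragments in Nr6a1OE, against 24, 23 and 27 in mScarlet, which is -0.55 on the log2 scale (SE 0.27; edgeR unadjusted p = 0.0433, adjusted p = 0.375). The other, inside the gene 26.9 kb from its end (chromosome 1, 186682593 to 186682940), had 10 fragments in each Nr6a1OE library, against 12, 13 and 24 in mScarlet, which is -0.69 on the log2 scale (SE 0.35; edgeR unadjusted p = 0.0493, adjusted p = 0.394). At both, every Nr6a1OE library was below every mScarlet library when scaled for depth. The log2 fold change of the interval outside the gene was -0.36 without Nr6a1OE 2 (edgeR adjusted p = 0.704), and that of the interval inside was -0.37 without mScarlet 3 (0.829). Among the 9 ligand intervals these were the only ones with an unadjusted p under 0.05.

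**Figure D4:**
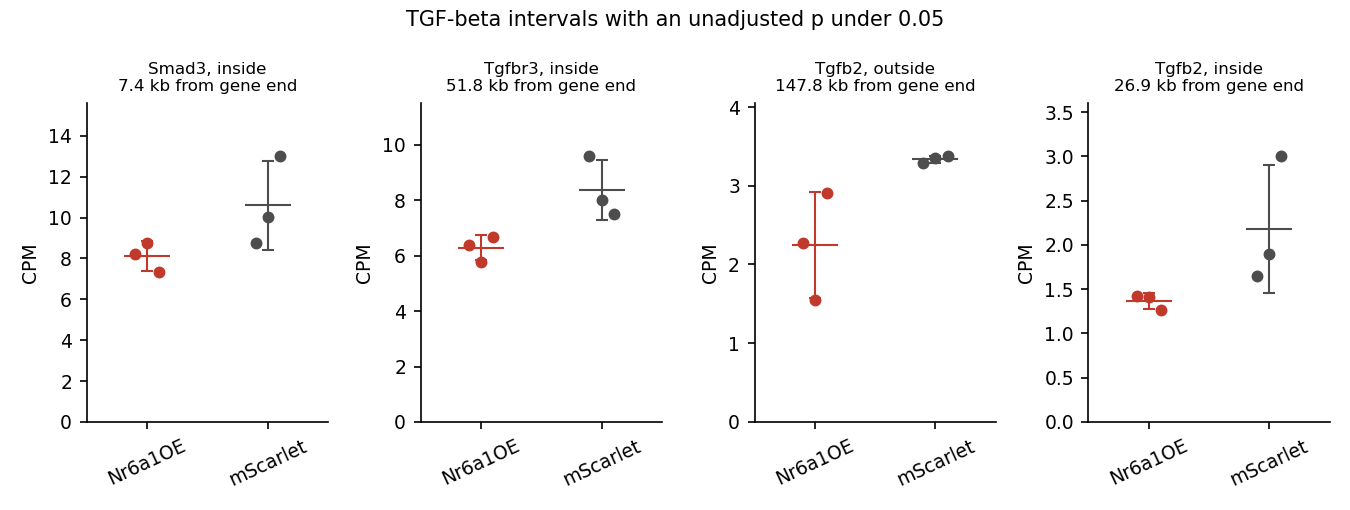
CPM per library at the 4 TGF-beta intervals with an unadjusted p under 0.05, Nr6a1OE left of mScarlet; horizontal marks are means and bars 1 SD of 3 libraries. Nr6a1OE libraries lie below mScarlet libraries in each panel, by a narrow margin at Smad3 and at the Tgfb2 interval inside the gene, and the Tgfb2 intervals have under 4 CPM.

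To ask whether the chromatin of each gene moved as a whole, fragments were summed over the intervals of each of 16489 genes and tested in the same way. None of the 10 sums passed. Among all genes 0.861% of sums were higher and 1.07% lower at an adjusted p under 0.05, and 13.0% had an unadjusted p under 0.05, against 0 of the 10. The log2 fold change was above 0 for Tgfb1 and Skil and below 0 for the other 8, from -0.06 at Tgfbr1 to 0.09 at Tgfb1, with a median over all gene sums of about 0. The lowest edgeR adjusted p was 0.499, at Tgfb1. DESeq2 gave an adjusted p for only 3 of the sums and called 0, with 0 at an unadjusted p under 0.05. Over all genes it called 18 sums.

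The intervals of these sums bound the change that the libraries allow. Tgfb1 summed to 62.5, 54.3 and 58.6 CPM in Nr6a1OE and 53.4, 61.6 and 50.0 CPM in mScarlet, on the scale of the gene table, a difference of 6.79% with a 95% interval of -1.21 to 15.4%. Tgfb2 summed to 59.0, 56.6 and 53.3 CPM in Nr6a1OE and 55.2, 59.2 and 57.3 CPM in mScarlet, a difference of -1.73% (-9.09 to 6.22%). The groups overlapped at both ligands. Tgfbr1 summed to 105.0, 101.2 and 103.7 CPM in Nr6a1OE and 107.3, 105.6 and 109.1 CPM in mScarlet, a difference of -3.85% (-9.30 to 1.93%), and Smad2 to 220.9, 225.7 and 224.2 CPM in Nr6a1OE and 227.5, 231.4 and 225.9 CPM in mScarlet, a difference of -1.98% (-6.00 to 2.20%). At these 2 genes all Nr6a1OE libraries were below all mScarlet libraries, which held for 16.8% of all gene sums in one direction or the other. The remaining sums differed by -3.64% at Tgfb3, -1.77% at Tgfbr2, -3.24% at Tgfbr3, -1.69% at Smad3, -0.756% at Smad7 and 1.62% at Skil, and the outermost bounds over the 10 genes were -11.2% (Tgfb3) and 15.4% (Tgfb1). With 1 library left out, the outermost bounds were -14.2% (Tgfb3, without Nr6a1OE 3) and 23.4% (Tgfb1, without mScarlet 2). The 95% interval of the Tgfb1 sum lay above 0 without mScarlet 2 (3.75 to 23.4%) and without Nr6a1OE 2 (1.11 to 20.4%). Neither fit passed for Tgfb1 (edgeR adjusted p = 0.128 and 0.337). The Tgfb1 sum moved with single libraries of both groups, with a log2 fold change of 0.18 without mScarlet 2, 0.05 without Nr6a1OE 1 and 0.03 without mScarlet 3. These bounds rest on the small spread between the libraries. If cultures varied by 10%, an assumed value, the SE of each sum would be 0.121 to 0.132 on the log2 scale in place of 0.030 to 0.060.

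**Figure D5:**
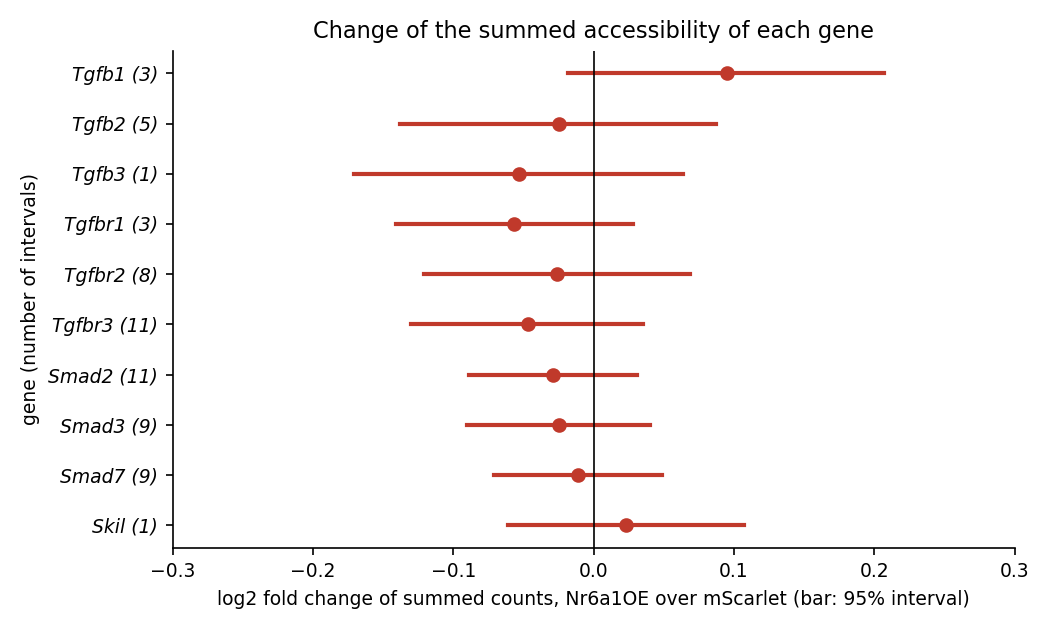
Log2 fold change, Nr6a1OE over mScarlet, of the fragments summed over each gene's intervals; points are estimates, bars 95% intervals, and the number of intervals is in brackets. With all 6 libraries, all 10 bars cross 0, and all lie between -0.171 and 0.207.

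Around these genes, 40 further genes of the TGF-beta and activin or nodal pathway were listed, of which 38 had an interval. Foxh1, a Smad partner in nodal signalling, had none. Of the 156 intervals tested, 1 was higher (0.641%) and 2 were lower (1.28%) at an adjusted p under 0.05, close to the 0.469% and 1.26% of all intervals, and the median log2 fold change was 0.009. At an unadjusted p under 0.05 were 17 intervals (10.9%), 10 higher and 7 lower, against 12.6% of all. Activin and nodal ligands and their antagonists had 0 called of 20, and targets 0 of 21. DESeq2 called 0 of the 156, and 103 over all intervals. In edgeR 0 of the 38 gene sums passed, with 5 at an unadjusted p under 0.05.

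The called interval with the smallest adjusted p lay inside Ski, the closest relative of Skil and likewise a corepressor of Smads (chromosome 4, 155187648 to 155190449). It had 51.0, 49.6 and 58.7 CPM in Nr6a1OE, against 41.4, 50.0 and 44.8 CPM in mScarlet, so mScarlet 2 lay above the lowest Nr6a1OE library. The log2 fold change was 0.23 (SE 0.064, edgeR adjusted p = 0.021), and the call was lost without mScarlet 1 (adjusted p = 0.299), mScarlet 3 (0.0891) or Nr6a1OE 3 (0.412), where the log2 fold changes were 0.17, 0.23 and 0.15. An interval inside Acvr1b, the type I receptor of activin and nodal (chromosome 15, 101182551 to 101182967), had 15, 17 and 12 fragments in Nr6a1OE, against 31, 28 and 27 in mScarlet. Every Nr6a1OE library was below every mScarlet library, at -0.95 on the log2 scale (SE 0.27), and the interval passed (edgeR adjusted p = 0.033). This call was lost without mScarlet 1 (edgeR adjusted p = 0.162), mScarlet 2 (0.101), Nr6a1OE 1 (0.0753) or Nr6a1OE 3 (0.232), while the log2 fold change was -1.10 to -0.77 over the 6 fits with 1 library left out.

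An interval inside Ltbp1, which encodes a protein that anchors latent TGF-beta in the matrix (chromosome 17, 75233010 to 75233707), had 29, 27 and 35 fragments in Nr6a1OE, against 45, 47 and 53 in mScarlet. The groups did not overlap, with a difference of -0.66 on the log2 scale (SE 0.19; edgeR adjusted p = 0.041). Leaving out any 1 library ended this call (edgeR adjusted p = 0.0786 to 0.152, lowest without Nr6a1OE 3 and highest without Nr6a1OE 2), while the log2 fold change was -0.72 to -0.61. DESeq2 gave adjusted p of 0.892, 0.742 and 0.832 for the intervals at Ski, Acvr1b and Ltbp1, with log2 fold changes of 0.23, -0.96 and -0.67.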

How the data were processed

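ATAC-seq was measured in 6 libraries, 3 per group. The authors deposited a table of raw fragment counts per consensus interval; per the file headers it was made with featureCounts 2.0.1 on read pairs, with a fragment counted for every interval it overlapped by at least 0.2 of its length, so neighbouring intervals can share fragments. The submitters' processing notes name mm10. For the aligner, the peak caller, the duplicate filter and any Tn5 shift, the entry is: not given in the sources used here.

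Counts that passed filterByExpr were scaled by TMM and tested by quasi-likelihood in edgeR 4.0.16 under R 4.3.3 (functions glmQLFit, glmQLFTest), Benjamini-Hochberg adjusted over all intervals, or over all genes for gene sums; DESeq2 1.42.0 was an alternative. SE is the fold change over the root of F, and 95% intervals follow from it; they cover counting error and the spread between libraries. Gene ends came from RefSeq (GRCm38.p6, 21883 protein-coding genes), without exons. The fits were also run on simulated counts with planted changes. These counts were drawn with the spread fitted between the libraries, so they cannot show how the test holds for separate cultures. Chi-square per degree of freedom between replicates was 1.05 to 1.10 where the mean was 10 fragments or more. For Nr6a1OE 1 and 3 it was 1.0551 there (chi-square p = 1.61e-18). Where the mean was 100 or more it was 0.9987 to 1.1663, highest between mScarlet 2 and 3. At that limit Nr6a1OE 1 and 3 did not differ beyond counting noise (0.9987, chi-square p = 0.549), so a fit with both summed is among the alternatives.

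Named intervals were those past the threshold, the strongest within 1 kb of a gene end (or the nearest to one) and the one with the smallest p of each gene, with exceptions stated. The genes, lists and tests were chosen with earlier results of these data known.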

Additional observations from a re-analysis of the deposited data

How the results depend on the processing

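The count of TGF-beta intervals and of TGF-beta gene sums called in each direction was 0 in every setting run: other library scalings, no filter on low counts, DESeq2, Nr6a1OE 1 and 3 summed, an assumed variation of 10% between cultures, each library left out (0 to 0), a limit of 100 kb and assignment by nearest end alone, and for intervals also loess offsets and chromosome medians removed. For intervals, the 100 kb limit and assignment by nearest end alone could not change the 0. They kept a part or all of the same intervals from the same fit. The assumed variation of 10% raised the SE of every gene sum, so it could hardly add a call there. The lowest edgeR adjusted p in any setting was 0.0794 for an interval (Smad3 at 63750153, without mScarlet 1) and 0.128 for a gene sum (Tgfb1, without mScarlet 2). The labels do not say whether libraries with the same replicate number belong together. Deviations of same-numbered libraries correlated at 0.032, -0.025 and -0.03, and those of other pairs at -0.051 to 0.075. Since these deviations were mostly counting noise, the correlations cannot decide whether the libraries were paired. With the replicate number as a block the counts were again 0, and 3 for the other pathway genes.

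Of the other pathway intervals, 3 were called in the main test, 0 by DESeq2, 0 with an assumed variation of 10%, and 0 to 2 with 1 library left out. The count was 4 with scaling by library totals only, with chromosome medians removed and with no filter on low counts. It stayed at 3 with RLE size factors, with loess offsets and with Nr6a1OE 1 and 3 summed. These alternatives for the other pathway genes were added after the data were seen.

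Some uncalled values changed sign, all but 1 of them within 0.05 of 0 in the main test; the Smad7 interval 2.6 kb outside the gene was -0.23 there and turned only without mScarlet 3. With 1 library left out, log2 fold changes ranged over -0.059 to 0.015 (Tgfb2 sum), -0.055 to 0.022 (Smad7 sum), -0.067 to 0.024 (Smad7 gene end), -0.37 to 0.033 (Smad7, 2.6 kb outside), -0.036 to 0.0076 (Smad2 gene end), -0.076 to 0.044 (Tgfb2 start) and -0.085 to 0.011 (Tgfbr3 gene end). The Smad7 gene end was 0.0045 with loess offsets and 0.0042 with chromosome medians removed. The cause was not tested. Depth limits the weak intervals most: the 24 intervals under 5 CPM include both Tgfb2 intervals with a small p, whose SE was 0.27 and 0.35, and neither passed at -0.55 and -0.69 on the log2 scale.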
